A study of Mus musculus with 4 samples.

Results

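The genes described here are 10 RNA-binding regulators of splicing that are tied to epithelial and mesenchymal cell states: Mbnl1, Mbnl2, Mbnl3, Esrp1, Esrp2, Rbfox2, Qki, Celf1, Ptbp1 and Ptbp2. They were chosen by name, with their values in these libraries already known, from a table of 50679 genes. All 10 were found, Qki under the symbol Qk, which lists QkI among its RefSeq synonyms. All 10 also reached the expression filter used for the comparison of genotypes, an average of 1 FPKM or more across the 4 libraries (FPKM, fragments per kilobase of transcript, relative to library size). Because the values of all 4 libraries chose these genes, their levels and differences are a description and carry no test of their own.

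RNA was measured in mouse mammary tumour cells that express the polyoma middle T oncogene (PyMT, a viral protein that drives mammary tumours) and carry either wild-type PCNA (WT, n = 2 libraries) or the form labelled PCNA 211F (n = 2). This protein is the replication clamp that slides along DNA. Tumours of mice aged 10 weeks were dissociated, cells were captured with an antibody against the epithelial surface protein EpCAM, and the cells were then grown in serum, plated at 100000. The libraries are labelled luminal epithelial adenocarcinoma and described as independent repeats. The sources used here do not give whether each came from its own animal, nor which promoter drives PyMT.

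The 4 libraries did not share the epithelial state that their labels name. All 11 epithelial markers were lowest in WT 2, where they summed to 7.35 FPKM against 3116 to 3590 in the others. Krt14 and Krt5 (1297 and 1029 FPKM) were the largest parts of the 211F 1 sum. The median of the 11 markers was 245 FPKM (WT 1), 0.533 (WT 2), 77.3 (211F 1) and 148 (211F 2). Mesenchymal markers (9 genes) reached sums of 3514 (WT 2) and 4433 FPKM (211F 1), and of only 319 (WT 1) and 56.1 (211F 2). Fibroblast markers (7 genes) summed to 1076 FPKM in WT 2 and at most 35.3 elsewhere, while endothelial, leukocyte and adipocyte markers summed to at most 3.86. Of the epithelial markers, 1 was under 0.1 FPKM in WT 2 and 0 in the other libraries; of the fibroblast markers, 3 were under 0.1 in WT 1, 2 in 211F 1, 5 in 211F 2 and 1 in WT 2. No genotype therefore holds 2 libraries of like state, and the differences between genotypes are also given without WT 2. Leaving out WT 2 does not match the states, since 211F 1 also held much mesenchymal marker RNA.

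Splicing regulators of this kind bind short motifs beside alternative exons and promote or block their use. Esrp1 and Esrp2 are restricted to epithelial cells and keep epithelial isoforms of receptors and junction proteins, among them those of Fgfr2, Cd44 and Ctnnd1. Rbfox2 and Qki favour many of the isoforms found in mesenchymal cells. Mbnl proteins favour the isoforms of differentiated tissues and Celf1 often acts against them. Ptbp1 represses many exons in dividing cells, and Ptbp2 is its paralog best known from neurons. The table gives 1 value per gene, so the isoforms themselves were not measured, and neither was protein.

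Promoter sequences from RefSeq (GRCm38.p6) were matched for 7 of the 10 genes, in 8 windows; Esrp1, Esrp2 and Rbfox2 were not matched. The 3 windows shown, all of Mbnl genes, are those that hold 0 bases of annotated exons. Each holds the 250 bases before the start site, 5′ to 3′ on the gene's strand, and capitals mark CpG pairs. Mbnl1 lies at chr3:60472580-60472829 (plus strand), Mbnl2 at chr14:120275419-120275668 (plus strand) and Mbnl3 at chrX:51205991-51206240 (minus strand).
Mbnl1: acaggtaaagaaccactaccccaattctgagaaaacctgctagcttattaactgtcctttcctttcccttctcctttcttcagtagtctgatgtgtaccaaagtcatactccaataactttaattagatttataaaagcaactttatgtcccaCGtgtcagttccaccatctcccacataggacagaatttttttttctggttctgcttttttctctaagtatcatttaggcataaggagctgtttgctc
Mbnl2: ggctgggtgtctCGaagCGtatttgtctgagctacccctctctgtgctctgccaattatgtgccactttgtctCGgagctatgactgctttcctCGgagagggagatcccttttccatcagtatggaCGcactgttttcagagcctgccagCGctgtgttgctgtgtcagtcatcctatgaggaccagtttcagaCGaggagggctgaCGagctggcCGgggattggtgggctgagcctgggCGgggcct
Mbnl3: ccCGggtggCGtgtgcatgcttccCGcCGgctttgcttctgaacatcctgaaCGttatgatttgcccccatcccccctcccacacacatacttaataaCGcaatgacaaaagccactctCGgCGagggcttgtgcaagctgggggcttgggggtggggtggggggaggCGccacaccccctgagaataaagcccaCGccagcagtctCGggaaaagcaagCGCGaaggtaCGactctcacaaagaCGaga
The Mbnl1 window had a GC content of 38% and 1 CpG pair, the Mbnl2 window 57.2% and 10 pairs, and the Mbnl3 window 59.2% and 15 pairs. The median of all 32851 promoters was 52.4% GC and 6 pairs. Mbnl1 has another RefSeq start site at position 60501179 of chromosome 3, whose window of the same length had 73.6% GC and 33 CpG pairs. That window holds 160 bases of annotated exons and is not shown. The FPKM table sums over both starts, so it does not show which was used. The E-box CACCTG, read on both strands, which Zeb and Snai repressors can bind, was in 0 of the 8 windows and in 17.2% of all promoters. The motif AACCNGTT of Grhl factors was in 0 of the 8 windows and in 1.79% of all promoters. The absence of these 2 motifs says only that their letters are not in these windows of 250 bases.

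Esrp1 and Esrp2 were abundant in WT 1 and 211F 2, lower in 211F 1 and nearly absent from WT 2. Esrp1 (ENSMUSG00000040728; chromosome 4, 11331933 to 11386783, minus strand) was at 110.0 FPKM (WT 1), 0.262 (WT 2), 17.4 (211F 1) and 102 (211F 2). The highest and lowest library are both WT, so the groups overlap completely. Esrp2 (ENSMUSG00000084128; chromosome 8, 106130319 to 106136974, minus strand) was at 27.1 FPKM (WT 1), 0.0752 (WT 2), 6.82 (211F 1) and 28.5 (211F 2). It followed the order of Esrp1 except that 211F 2 stood just above WT 1. The summed epithelial markers were also lowest in WT 2 and the fibroblast markers highest there, and the part of a change in cell make-up in the Esrp values was not tested.

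Esrp1 stood at 2.54 (211F 1) to 4.05 (WT 1) times Esrp2, while the levels of both genes moved by over 2 orders of magnitude. That span of levels rests on WT 2. The highest library exceeded the lowest 420-fold for Esrp1 and 379-fold for Esrp2. Esrp1 held 80.2% (WT 1), 77.7% (WT 2), 71.8% (211F 1) and 78.2% (211F 2) of the family's FPKM. In bulk RNA fewer cells of a type and less RNA per cell cannot be told apart, which holds for the intermediate value of 211F 1. Counted over the longest annotated transcript, the WT 2 values equal about 61.0 fragments of Esrp1 and 16.1 of Esrp2. Both therefore lie above the value of 3 fragments in 1 kb, 0.0497 FPKM in that library. An exon of Esrp2 overlaps Nfatc3, and 1 of Esrp1 overlaps a long non-coding RNA, on the other strand. The sources used here do not say whether counting used strand, so the low WT 2 values are uncertain.

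**Figure D1:**
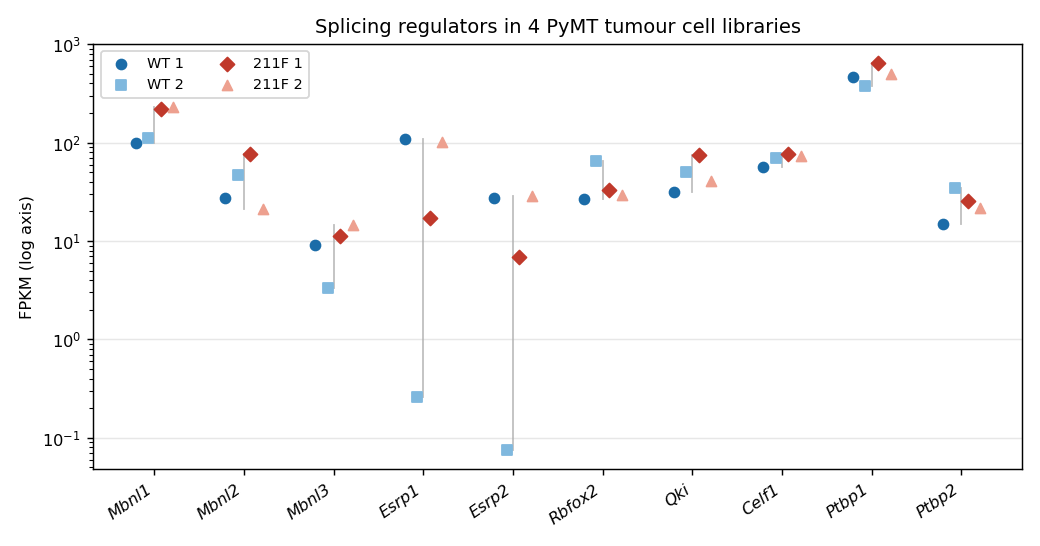
FPKM of the 10 regulators (log axis) in each of the 4 libraries; every point is 1 library and the grey line spans the lowest to the highest. Esrp1 and Esrp2 span the widest range, from under 0.3 FPKM in WT 2 to 110.0 and 28.5, and Mbnl1 has both 211F libraries above both WT libraries.

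Mbnl1 was the most abundant Mbnl gene in every library and was higher in both 211F libraries. Mbnl1 (ENSMUSG00000027763; chromosome 3, 60472830 to 60629750, plus strand) stood at 99.8 FPKM (WT 1), 111 (WT 2), 220.5 (211F 1) and 233 (211F 2). The gap between replicates (0.15 log2 units in WT, 0.08 in 211F) was small beside that between genotypes, although WT 2 lacks the epithelial markers that WT 1 holds. Mbnl1 did not follow the split seen for Esrp1: it was nearly equal in the library with the most Esrp1 and in the library with the least.

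Mbnl2 and Mbnl3 each had a pattern of their own. Mbnl2 (ENSMUSG00000022139; chromosome 14, 120275669 to 120431697, plus strand) was at 27.7 FPKM (WT 1), 46.9 (WT 2), 76.0 (211F 1) and 21.0 (211F 2). The 2 libraries with the most mesenchymal marker RNA held the 2 highest values, and the genotypes overlap. Mbnl3 (ENSMUSG00000036109; chromosome X, 51117269 to 51206532, minus strand) was at 9.02, 3.36, 11.3 and 14.7 FPKM in the same order of libraries. Its groups do not overlap, but WT 2 lay farther below WT 1 (1.20 log2 units) than the genotypes lay apart (1.07).

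The Mbnl family together summed to 137 FPKM (WT 1), 161 (WT 2), 308 (211F 1) and 268 (211F 2). Mbnl1 made up 73.1%, 68.8% and 71.6% of this in WT 1, WT 2 and 211F 1, and 86.7% in 211F 2. The Mbnl2 share was 29.1% in WT 2 and 7.81% in 211F 2, the largest change of make-up in the family over these 4 libraries. Mbnl3 held between 2.09% (WT 2) and 6.60% (WT 1). An antisense RNA overlaps an exon of Mbnl2, so its value may include reads of the other strand.

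**Figure D2:**
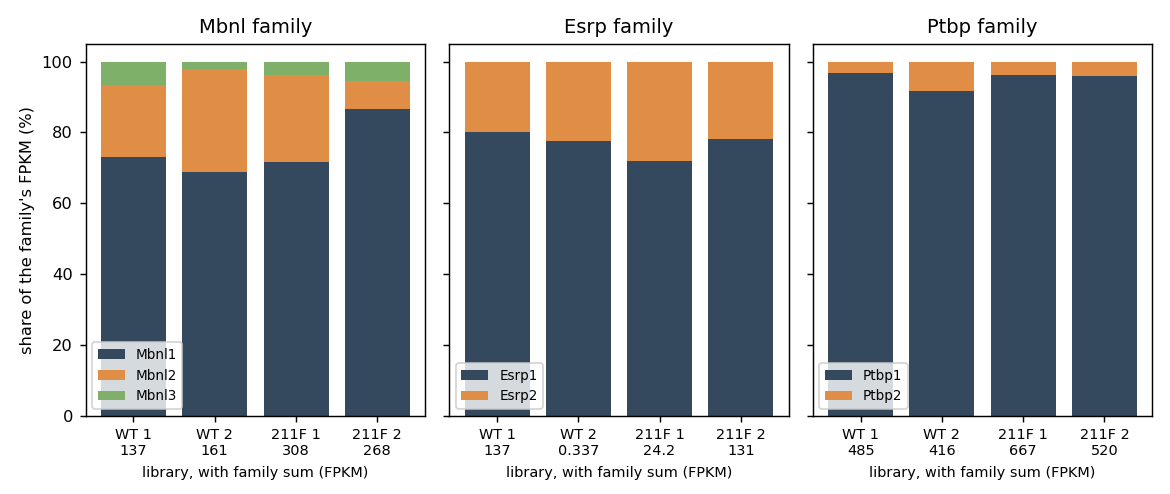
Share (%) of the summed FPKM of the Mbnl genes, of the Esrp genes, and of Ptbp1 and Ptbp2 held by each gene in each library, with the sum below each bar. The Ptbp panel leaves out Ptbp3. The Esrp shares stay between 71.8% and 80.2% for Esrp1 although the sum runs from 0.337 to 137 FPKM, while the Mbnl2 share runs from 7.81% to 29.1%.

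Rbfox2 and Qki, the regulators tied to mesenchymal isoforms, were expressed in every library, over far narrower ranges than Esrp1. Rbfox2 (ENSMUSG00000033565; chromosome 15, 77078990 to 77307004, minus strand) was at 26.9 FPKM (WT 1), 64.6 (WT 2), 32.7 (211F 1) and 29.1 (211F 2). Its order is the reverse of that of Esrp1, but it was high in WT 2 alone. 211F 1 lay close to WT 1 and 211F 2, although its Vim (vimentin) level was 1856 FPKM and that of WT 2 was 1634. The ratio of Rbfox2 to Esrp1 was 0.245 for WT 1, 0.284 for 211F 2, 1.88 for 211F 1 and 247 for WT 2. Most of that span comes from Esrp1, since Rbfox2 itself changed 2.40-fold from its lowest to its highest library.

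Qki (listed as Qk, ENSMUSG00000062078; chromosome 17, 10202601 to 10319854, minus strand) was at 31.5 FPKM (WT 1), 50.6 (WT 2), 75.1 (211F 1) and 40.3 (211F 2). Here 211F 1 was the highest library and WT 2 the next, and both exceeded the 2 libraries with less Vim. The same 2 libraries were the highest for Mbnl2, and Qki ranked 282 of 12766 genes in closeness to the Mbnl2 profile (Euclidean distance between log2 values centred on each gene's mean, over 4 libraries). Qki changed 2.38-fold in all, so it was far from absent in WT 1 and 211F 2.

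Celf1 and Ptbp1 spanned less than 1 log2 unit over the 4 libraries, and Ptbp2 spanned 1.17. Celf1 (ENSMUSG00000005506; chromosome 2, 90940382 to 91019497, plus strand) was at 56.8 FPKM (WT 1), 70.2 (WT 2), 76.0 (211F 1) and 74.1 (211F 2). It was the steadiest of the 10, with a 1.34-fold span, and its groups do not overlap although WT 2 and 211F 2 were only 0.08 log2 units apart. Ptbp1 (ENSMUSG00000006498; chromosome 10, 79854427 to 79864771, plus strand) was the most abundant, at 470.1, 381, 642 and 498 FPKM in the same order. Both 211F values exceeded both WT values, by as little as 0.08 log2 units between WT 1 and 211F 2. Exons of Ptbp1 overlap 3 genes on the other strand.

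Ptbp2 (ENSMUSG00000028134; chromosome 3, 119718742 to 119784466, minus strand) was at 15.0 FPKM (WT 1), 34.9 (WT 2), 25.8 (211F 1) and 21.8 (211F 2). It was highest in WT 2 and lowest in WT 1, so the 2 WT libraries enclosed both 211F libraries. Its share of the Ptbp1 and Ptbp2 sum was 8.39% in WT 2 and 3.08% to 4.19% in the others. WT 2 had both the least Ptbp1 and the most Ptbp2 of the 4 libraries. Neuronal markers (5 genes) summed to 92.2 (WT 1), 24.9 (WT 2), 23.8 (211F 1) and 43.5 FPKM (211F 2). Nearly all of the WT 1 sum was Map2 (85.5 FPKM), and Snap25 was at 3.32, 3.44, 3.18 and 2.01 FPKM over the 4 libraries. Over 4 libraries the gene ranked 460 of 12766 in closeness to the Rbfox2 profile.

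Between genotypes, 9 of the 10 regulators had a higher mean in 211F and 1 a lower mean, on the scale of log2(FPKM + 1). The median difference of the 10 was 0.44, against 0.03 over all 12767 tested genes, of which 53.1% had a higher mean in 211F. The differences (211F minus WT, with the SE of limma) were 1.10 ± 0.21 for Mbnl1, 1.07 ± 0.53 for Mbnl3 and 0.15 ± 0.72 for Mbnl2. They were 1.88 ± 2.45 for Esrp1 and 1.47 ± 1.82 for Esrp2, with SEs larger than the differences. For the rest they were -0.43 ± 0.49 for Rbfox2, 0.45 ± 0.44 for Qki, 0.25 ± 0.23 for Celf1, 0.42 ± 0.27 for Ptbp1 and 0.05 ± 0.48 for Ptbp2. The value for Mbnl1 corresponds to a level 2.14-fold higher on the pseudocount scale.

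limma called 0 of the 12767 genes (0%) at an adjusted p under 0.05, so 0 of the 10 regulators passed. At an unadjusted p under 0.05 it listed 241 genes (1.89%), of which 1, Mbnl1, is among the 10; this contrast was used in choosing them, so nothing is read from that count. Both 211F libraries lay above both WT libraries in 4 of the 10 (Mbnl1, Mbnl3, Celf1 and Ptbp1), against 15.2% of all tested genes, and below them in 0 of the 10, against 11.6%. In either direction it was 4 of the 10 and 26.8%. With 2 libraries against 2 the smallest two-sided p of an exact permutation test is 0.333, and the 2 libraries of each genotype differ in epithelial state. Without WT 2 the Esrp1 difference turned to -1.35, that of Esrp2 to -0.89 and that of Rbfox2 to 0.19, while Mbnl1 stood at 1.17, Mbnl2 at 0.52, Mbnl3 at 0.47 and Qki at 0.79. Celf1 stood at 0.40, Ptbp1 at 0.27 and Ptbp2 at 0.63 without it. The Esrp1 value without WT 2 joins -2.60 for 211F 1 and -0.10 for 211F 2, each minus WT 1. Leaving out WT 1 or 211F 1 turned the differences of Mbnl2 and Ptbp2.

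**Figure D3:**
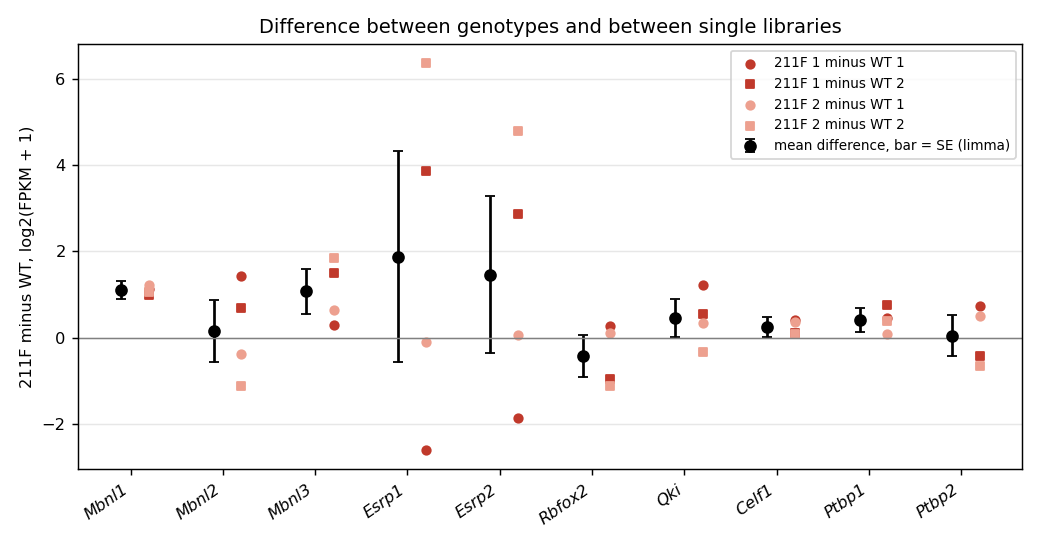
Difference 211F minus WT in log2(FPKM + 1) for each regulator: black points are the mean difference with the SE of limma (n = 2 and 2), coloured points the 4 differences between a single 211F and a single WT library. The 4 points of Mbnl1 lie between 0.99 and 1.21, whereas those of Esrp1 run from -2.60 to 6.36.

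Set against one another, single libraries show which regulators moved with which library; these differences have no replicate check. WT 2 differed from WT 1 by at least 1 log2 unit in 5 of the 10 regulators, against 24.5% of all tested genes: Rbfox2 and Ptbp2 were higher, and Mbnl3, Esrp1 and Esrp2 lower. Between 211F 1 and 211F 2 the same held for 3 of 10 (19.1% of all genes), with Esrp1 and Esrp2 higher and Mbnl2 lower in 211F 2. Between WT 1 and 211F 2, the 2 libraries with the most Esrp1, it held for Mbnl1 alone (10.4% of all genes). Relative to WT 1, 211F 1 passed this size in 5 regulators (20.1% of all genes), with Mbnl1, Mbnl2 and Qki higher and Esrp1 and Esrp2 lower. Relative to WT 2, 211F 1 passed it in Mbnl3, Esrp1 and Esrp2, all higher (3 of 10, against 17.1%). Relative to WT 2, 211F 2 passed it in 6 of 10 (24.7% of all genes), with Mbnl1, Mbnl3, Esrp1 and Esrp2 higher and Mbnl2 and Rbfox2 lower. Over all 4 libraries 8 of the 10 regulators spanned at least 1 log2 unit, against 40% of tested genes, and Celf1 and Ptbp1 did not. The range was 6.46 log2 units for Esrp1, wider than or equal to that of 99.2% of tested genes, and 4.78 for Esrp2.

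Esrp genes are repressed by Zeb and Snai factors and accompany Grhl and Ovol factors in epithelial cells, so these were set beside them. Grhl2, an activator of epithelial genes, was at 48.4 FPKM (WT 1), 0.109 (WT 2), 9.17 (211F 1) and 42.0 (211F 2), the order of Esrp1. Zeb1, a repressor of epithelial genes, was at 0.657, 52.3, 41.6 and 0.996 FPKM over the libraries in that order, and Zeb2 at 1.71, 26.1, 25.3 and 1.48. Zeb1 and Zeb2 RNA was nearly as high in 211F 1 as in WT 2, and Esrp1 was at 17.4 FPKM in 211F 1 and 0.262 in WT 2. Bulk RNA does not show whether the same cells held Zeb1 and Esrp1, and a link between their levels was not tested. The Esrp1 value of 211F 1 lay well apart from both ends.

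Other factors of that list set 211F 1 closer to WT 2. Ehf, an epithelial ETS factor, was at 237 FPKM (WT 1), 1.70 (WT 2), 3.84 (211F 1) and 145 (211F 2). Elf5, an ETS factor of luminal progenitors, was at 32.0, 0.143, 0.331 and 45.1 FPKM, and Prrx1, a mesenchymal homeobox factor, at 0.396, 104, 39.6 and 0.182. Of the 18 factors listed, 10 had a higher and 8 a lower mean in 211F (median 0.04). Of the 18, 0 passed limma and 17 spanned at least 1 log2 unit, against 40% of all tested genes. Without WT 2 the median difference of the 18 was 0.51. In 2 of the 18 both 211F libraries lay above both WT libraries (15.2% of all tested genes) and in 1 below (11.6%). Klf5, a zinc finger factor of epithelial cells, was at 19.98 and 10.9 FPKM (WT 1 and 2) against 35.1 and 53.9 (211F 1 and 2), a difference of 1.49 ± 0.42 (SE). Ovol1 differed by 1.25 ± 0.73 and Snai2, a repressor of epithelial genes, by -0.42 ± 0.32.

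**Figure D4:**
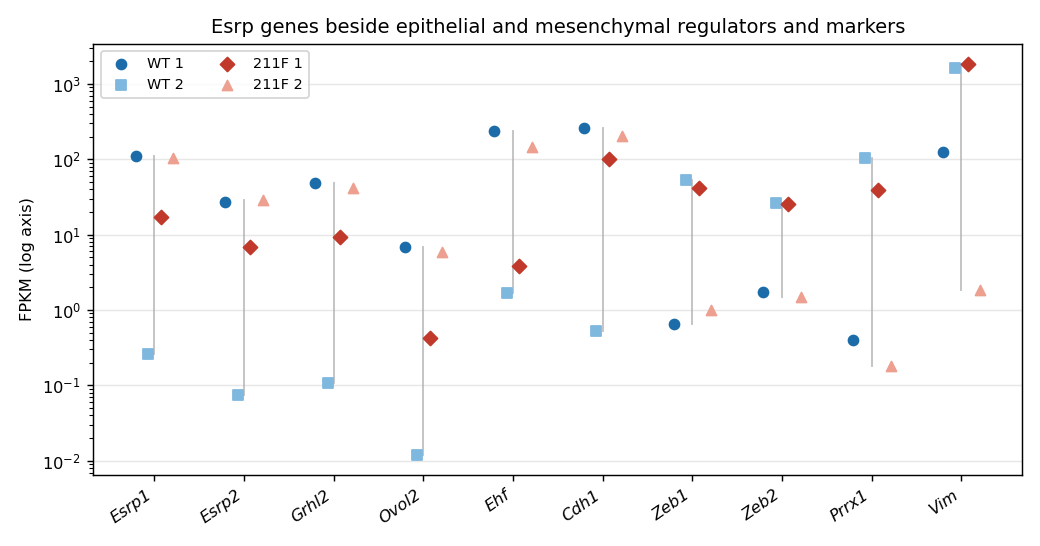
FPKM (log axis) of Esrp1 and Esrp2 beside epithelial factors (Grhl2, Ovol2, Ehf), Cdh1, mesenchymal factors (Zeb1, Zeb2, Prrx1) and Vim; each point is 1 library and the grey line spans lowest to highest. WT 1 and 211F 2 sit high for the epithelial genes and low for the mesenchymal ones, and 211F 1 holds 17.4 FPKM of Esrp1 together with 41.6 of Zeb1.

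The genes closest to each regulator in profile were taken by the same distance, over 4 libraries; with so few points this describes likeness only. Closest to Esrp1 were St14, the membrane protease matriptase, with 111, 0.256, 17.1 and 102 FPKM (distance 0.03 log2 units), then Plet1, the plakophilin Pkp3 and the desmosomal cadherin Dsg2. Esrp2 ranked 47 of 12766 from Esrp1. Closest to Mbnl1 were Mlf1 (3.57, 3.79, 9.30 and 9.20 FPKM; distance 0.09), Dgkh, a diacylglycerol kinase, Nol10, a nucleolar protein, and Odc1, the first enzyme of polyamine synthesis. Closest to Mbnl3 were Sec11c, a signal peptidase subunit (39.6, 17.6, 53.7 and 67.6 FPKM; distance 0.10), Fam57a, Riox2 and the EGF receptor ligand Btc. Closest to Qki were Myo1c, an unconventional myosin (71.7, 121, 179 and 95.6 FPKM; distance 0.07), Micu3, the microtubule-associated protein gene Map4 and the adhesion adaptor Bcar1.

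Other splicing regulators of cell state were read from a list of 37 genes. Of these, 23 reached the filter, and 13 had a higher and 10 a lower mean in 211F. Of the 23, 0 passed limma and 9 spanned at least 1 log2 unit, against 40% of all tested genes. In 7 both 211F libraries lay above both WT libraries (15.2% of all tested genes), and in 3 below (11.6%). Khdrbs3, a STAR-family protein related to Qki, was at 24.9 FPKM (WT 1), 3.23 (WT 2), 23.9 (211F 1) and 0.450 (211F 2), the widest range of the list (4.16 log2 units). Rbpms, an RNA-binding protein of smooth muscle, was at 8.24, 12.2, 6.71 and 1.04 FPKM, and its paralog Rbpms2 at 1.66, 13.7, 6.74 and 1.14. Rbms3 was at 9.37, 7.52, 12.2 and 0.645 FPKM. In 3 of these 4 genes 211F 2 was the lowest library by over 2-fold, and in Rbpms2 it was lowest with WT 1 close to it.

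Among the genes of this list whose groups do not overlap, Rbpms, Msi2 and Rbm38 had the largest mean differences. That of Rbpms was -1.48 ± 0.77 (SE), with 211F 1 at 6.71 FPKM close to WT 1 at 8.24. Rbm38, an RNA-binding protein induced by p53, was at 8.51 and 9.36 FPKM (WT 1 and 2) against 15.4 and 15.3 (211F 1 and 2) (0.72 ± 0.27, SE). Msi2, a Musashi protein, was at 19.5 and 20.4 FPKM (WT 1 and 2) against 11.4 and 9.79 (211F 1 and 2) (-0.86 ± 0.26). Rbm47, another epithelial splicing regulator, was at 19.7 FPKM (WT 1), 3.41 (WT 2), 4.44 (211F 1) and 11.6 (211F 2); it shared the high libraries of Esrp1 but kept a clear level in WT 2. Ptbp3, the third Ptb paralog, was at 69.4, 32.7, 55.4 and 102 FPKM, lowest in WT 2 like Ptbp1.

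The general splicing machinery spanned narrow ranges, whereas 40% of all tested genes spanned at least 1 log2 unit. These lists hold highly expressed genes. The median FPKM was 79.0 (WT 2) to 81.0 (WT 1) for the core spliceosome and 206 (WT 2) to 236 (211F 1) for hnRNP genes. The median level of all tested genes was 3.90 on the scale of log2(FPKM + 1). Ranges were not compared with those of genes at a like level. Of 36 core spliceosome genes, all tested, 0 spanned 1 log2 unit, with a median range of 0.41 against 0.82 over all tested genes; 22 had a higher and 14 a lower mean in 211F. Of 23 hnRNP genes 1, Hnrnph1, spanned 1 log2 unit (228 FPKM (WT 1), 534 (WT 2), 404 (211F 1) and 394 (211F 2)). In this list 20 had a higher and 3 a lower mean in 211F, with a median difference of 0.15, and 10 had both 211F libraries above both WT libraries, against 15.2% of all tested genes. With quantile normalization the median difference of the hnRNP list was 0.09. Of 21 tested SR and SR-like genes 1, Srsf2, spanned 1 log2 unit (187, 160, 188 and 368 FPKM), and 14 had a higher and 7 a lower mean. Clk1, a kinase of SR proteins, was at 70.8 and 68.0 FPKM (WT 1 and 2) against 45.5 and 47.0 (211F 1 and 2). In these 3 lists 0 genes passed limma. Both 211F libraries also lay above both WT libraries in 8 of 21 SR genes and 7 of 36 core spliceosome genes (15.2% of all tested genes). They lay below in 2 SR, 3 core spliceosome and 0 hnRNP genes (11.6% of all tested genes). Without WT 2 the median differences were 0.09 for the core spliceosome, 0.11 for hnRNP genes, 0.11 for SR genes and 0.17 for the other regulators.

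**Figure D5:**
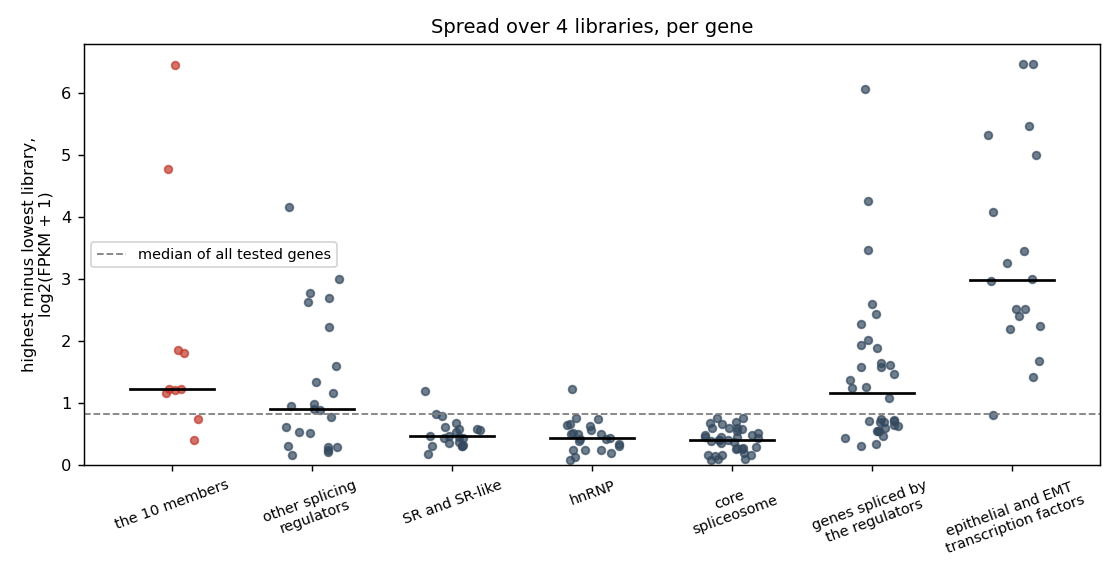
Highest minus lowest library in log2(FPKM + 1), 1 point per tested gene, for the 10 regulators (red) and 6 wider lists; black bars are medians and the dashed line is the median of all tested genes, 0.82. Medians are 1.23 for the 10, 0.41 for the core spliceosome and 2.99 for the transcription factors.

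Genes whose transcripts these regulators are known to splice were compared at the gene level only. Of 35 listed genes 34 were tested, and 19 had a higher and 15 a lower mean in 211F (median 0.13). Of the 34, 0 passed limma and 18 spanned at least 1 log2 unit, against 40% of all tested genes. In 8 both 211F libraries lay above both WT libraries (15.2% of all tested genes), and in 3 below (11.6%). Fgfr2, whose epithelial receptor isoform depends on Esrp proteins, was at 29.1 FPKM (WT 1), 16.6 (WT 2), 10.7 (211F 1) and 8.97 (211F 2). Its order did not follow Esrp1: 211F 2 had the least Fgfr2 and nearly the most Esrp1. Itga6, the alpha6 integrin, was at 199.8 FPKM (WT 1), 9.47 (WT 2), 73.3 (211F 1) and 109 (211F 2).

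Several targets were highest in 211F 1. Fn1, the fibronectin gene, was at 129, 622, 1851 and 26.6 FPKM in the order WT 1, WT 2, 211F 1 and 211F 2, and Cald1, an actin-binding protein, at 225, 588, 1204 and 107. Actn1, an alpha-actinin, was at 113 and 135 FPKM (WT 1 and 2) against 554 and 199 (211F 1 and 2) (1.42 ± 0.56, SE). Its 211F values lay above its WT values, and 211F 1 was far above the rest. Without WT 2 the median of the list turned to -0.07.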

How the data were processed

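The authors deposited 1 table of FPKM values, 1 column per library; TopHat2 2.0.13, DESeq2 and GRCm38 are listed in the submitters' processing notes without role or order, and the sources used here do not give the program, annotation and strand setting behind the FPKM. The table holds no counts. In 1971 single-transcript genes of at least 3000 bp, low values fell within 0.1 of whole fragment steps for 94.2% to 95.7% of values, which puts 3 fragments in 1 kb at 0.0497 to 0.0911 FPKM and, if libraries were not rescaled, depth at 0.939 (211F 2) to 1.72 (WT 2) relative to WT 1. Symbols were matched by identifier for 50369 genes; positions are those of GENCODE on GRCm38. Values were analysed as log2(FPKM + 1), which understates changes of low genes, in genes averaging 1 FPKM or more, with limma 3.58.1 in R 4.3.3 (intensity trend, two-sided, Benjamini-Hochberg over all tested genes, threshold 0.05). Tested on simulated data, the fit recovered the changes put in when the spread between libraries was made far smaller than the real one. At the real spread it missed most of the small and middle-sized changes, so a count of 0 calls does not show that genes did not differ. Its p-values and SEs rest on the spread between 2 libraries per genotype, which limma draws toward a trend over all tested genes. The SE of Mbnl1 (0.21) is therefore wider than its own close replicates would give. Profile distances, promoter windows and figures were computed in Python 3.11.15; protein sequences were not used here.

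The members, gene lists and tests were chosen with earlier results of these data known. Named genes are the 10 members and, from each list, up to 4 of widest range and up to 3 of largest non-overlapping difference, plus the 4 nearest profiles of Esrp1, Mbnl1, Mbnl3 and Qki. A gene that the rule took is not reported here. Zeb1, Zeb2, Rbm47, Ptbp3 and Ovol2 were named after their values were seen. Alternatives were other pseudocounts (0.1 and 5), no filter, a minimum average of 5 FPKM, quantile normalization, no trend, a replicate block and leaving out each library.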

Additional observations from a re-analysis of the deposited data

How the results depend on the processing

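limma called 0 genes in the main test and in each of the 11 alternatives. Counting genes with unadjusted p under 0.05 gave 241. The count was 142 under the replicate block, 745 with no filter, where more genes are tested, and between 221 and 836 on leaving out each library, with the most when WT 1 was dropped, a change whose cause was not tested. The replicate block changed no other call; the labels do not say that numbers pair libraries, and across genes the deviations of libraries with the same number correlated with r = -0.465. Members with both 211F libraries above WT numbered 4, and between 5 and 7 with any single library dropped (7 without WT 2); members below numbered 0, and 0 to 2 (2 without WT 1), since fewer libraries have to lie apart. Signs changed for Mbnl2 (-0.75 to 1.06), Ptbp2 (-0.54 to 0.63), Esrp1 (-1.35 to 5.11), Esrp2 (-0.89 to 3.82) and Rbfox2 (-1.04 to 0.19), each on leaving out a library, and for the medians of the other regulators (no filter), the core spliceosome, the spliced genes and the transcription factors. Those of Mbnl1 (1.03 to 1.17), Mbnl3 (0.47 to 1.67), Qki (0.01 to 0.89), Celf1 (0.10 to 0.40) and Ptbp1 (0.24 to 0.60) kept their sign; the groups of Mbnl1, Mbnl3, Celf1 and Ptbp1 do not overlap, which fixes it. With 1 library left in a group, it is assumed to vary like the others.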
